A study of Mus musculus with 3 samples.

Results

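Mouse embryonic stem cells (mESCs) kept with Activin A and the MEK inhibitor PD0325901 were compared with mESCs kept in 2i, across all named genes of an Affymetrix Mouse Gene 2.0 ST array. Both cultures were of EB3, an established mESC line, in the serum-free medium N2B27. Activin+PD cells had spent 64 days in Activin A at 20 ng/ml plus PD0325901 at 2 µM. The 2i cells had spent 34 days in PD0325901 at 2 µM plus the GSK3 inhibitor CHIR99021, also at 2 µM. Both media thus held PD0325901 at the same dose, and the cultures differed in Activin A, in CHIR99021 and in the number of days. A further array held mouse epiblast stem cells (mEpiSCs) induced from EB3 cells, whose medium held 12 ng/ml bFGF besides Activin A at 20 ng/ml. The sources used here do not give how long they were grown. That array is used below only as a reference level. Each culture was measured on 1 array, so no difference could be set against a spread between cultures and no test was possible, and "higher" and "lower" describe these arrays.

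Values are log2 of the deposited array intensities, and where a pair of levels is given, Activin+PD stands first and 2i second. A difference is the Activin+PD level minus the 2i level, so 2-fold is 1. An array's background was set at the 95th percentile of its probe sets for olfactory and vomeronasal receptors, genes that pluripotent cells are not known to express. It lay at 5.5 for Activin+PD and 5.59 for 2i. A gene was compared where its brighter array was above background, which held for 14003 of 22180 genes. Where the dimmer array was below background, the difference is given as "at least" the brighter level minus that background. Such genes were counted, and entered medians, with their measured values. All of these are bulk samples, in which fewer cells of a type and less RNA per cell cannot be told apart.

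Activin A binds type II and type I serine/threonine kinase receptors that phosphorylate SMAD2 and SMAD3, which enter the nucleus with SMAD4 and act with partners such as FOXH1. The genes they switch on include inhibitors of the same pathway, among them Lefty1 and Lefty2. CHIR99021 acts on a different branch: with GSK3 blocked, beta-catenin is not degraded and frees or joins TCF/LEF factors on Wnt target genes such as Axin2, and in the embryo this signal marks the posterior end of the body axis.

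The 4 genes that mark the comparison lay in the directions that the media imply. Lefty1 stood at 10.69 and 8.05, a difference of 2.64, and Lefty2 at 10.75 and 8.53, a difference of 2.22. Axin2, a feedback inhibitor of Wnt signalling, stood at 7.47 and 9.43, a difference of -1.96. Cdx2, a caudal homeobox gene, stood at 5.84 and 8.64, a difference of -2.80. The pluripotency factors Pou5f1 (8.09 and 8.24), Sox2 (11.24 and 11.01), Nanog (12.33 and 12.07) and Zfp42 (11.45 and 11.18) were well above background on both arrays.

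Few genes separated the cultures. Of the 14003 genes compared, 193 (1.38%) were higher in Activin+PD by 2-fold or more and 115 (0.821%) at least 2-fold lower, together 2.2%. Over all 18701 probe sets compared, with or without a gene name, the shares were 1.49% and 0.695%. The median difference was -0.0056, and 92.9% of genes were within 1.5-fold. At 4-fold or more there were 20 genes higher and 18 lower. In 589 genes with several probe sets above background, the difference varied between probe sets of a gene with a standard deviation of 0.24, which is an error of the probes and not of the cultures. Of the genes at least 2-fold apart, 25 had more than 1 probe set. Among their 26 other probe sets, 16 were above background, 12 of these had the same sign and 3 were also at least 2-fold apart. Axin2 was 1 of the 3, with -1.03 from its other probe set. For Dusp6, Ccn2, Dsg2, Sox4 and Slc27a2, all named below, the other probe set was below background.

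**Figure D1:**
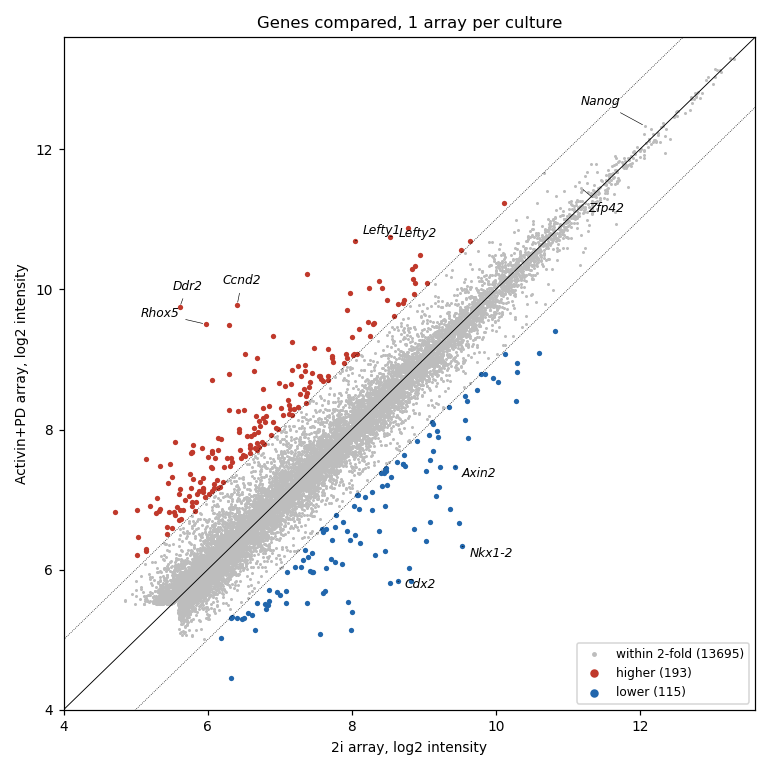
Log2 intensity of each of the 14003 genes compared, 2i on the horizontal axis and Activin+PD on the vertical axis, with 1 array per culture. The solid line marks equal levels and the dotted lines a 2-fold difference; 193 genes lie at or above the upper line in red, 115 at or below the lower line in blue, and Nanog and Zfp42 lie near the solid line.

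The largest differences were of unlike genes. Ddr2, a receptor tyrosine kinase for fibrillar collagen, stood at 9.75 and 5.61, and its difference of 4.13 was the largest of all genes compared. The mEpiSC array had it at 4.86, below background, so among these 3 arrays it was bright on the Activin+PD array only. Rhox5, an X-linked homeobox gene of germ cells and placenta, followed at 9.50 and 5.97 (3.53), Ccnd2, cyclin D2, at 9.78 and 6.41 (3.37), and Crmp1, a cytoskeletal mediator of axon guidance, at 9.49 and 6.29 (3.20). Actn3, a sarcomeric alpha-actinin, was higher by 2.85 and Runx1t1, a transcriptional corepressor, by 2.34. Aard, named for an alanine- and arginine-rich domain, was higher by 2.51.

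At the other end, Nkx1-2, a homeobox gene of the caudal epiblast, stood at 6.33 and 9.53 (-3.20), although a second probe set of it gave -0.43. Cd109, a cell-surface protein that binds TGF-beta, stood at 5.84 and 8.82 (-2.98). Pglyrp1, a peptidoglycan recognition protein, stood at 6.66 and 9.49 (-2.83), and Gfra3, a co-receptor for the ligand artemin, at 5.81 and 8.53 (-2.72). Fetub, a cystatin-family plasma protein, had a difference of -2.39 and Slc30a2, a zinc exporter, of -2.28.

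Genes of the Activin/Nodal pathway were described by role, from lists in which a gene may appear more than once. A gene bright on 1 array only entered its list through that array, so list counts and medians describe the members that passed the filter and not all members. None of 8 ligands was 2-fold apart. Nodal itself stood at 9.12 and 8.68, Gdf3 at 9.49 and 9.67, and Tgfb2 at 5.54 and 6.46, the widest gap of the 8 at -0.92. Of 9 receptors and co-receptors, 1 was higher and 2 lower. Tdgf1, also called Cripto, the membrane co-receptor that Nodal needs, stood at 10.15 and 8.85 (1.30). Acvr1b, the type I receptor for Activin and Nodal, stood at 7.51 and 8.71 (-1.20), and Tgfbr3, betaglycan, at 6.86 and 9.36 (-2.50). The type II receptor genes Acvr2a (7.52 and 7.61) and Acvr2b (7.94 and 7.62) were within 2-fold.

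Among the transducers, Smad2 stood at 9.02 and 8.93, Smad3 at 7.27 and 7.32 and Smad4 at 9.96 and 10.08. Foxh1, the DNA-binding partner of SMAD2, was on the lower side at 8.36 and 9.11 (-0.75). The SMAD antagonists were on the higher side: Smad7, which blocks the type I receptor, stood at 8.95 and 7.90 (1.05), Skil, a SMAD corepressor, at 8.87 and 8.0 (0.87) and its relative Ski at 8.50 and 8.14 (0.36). Smad7 was the 1 gene of these 10 at least 2-fold apart. The other secreted antagonists did not share the levels of the Lefty genes, with Fst, follistatin, at 6.27 and 6.88 (-0.60) and Fstl1 at 9.11 and 9.77 (-0.66). Pcsk6, a convertase that cleaves the Nodal precursor, stood at 8.73 and 7.90 (0.83), and the related Furin at 7.83 and 7.40 (0.43).

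Target genes were the role with the most genes apart. Of 13 compared, 6 were at least 2-fold higher and 0 lower, with a median of 0.87 beside -0.0056 over all genes. Besides Lefty1, Lefty2, Tdgf1 and Smad7, these were Pmepa1, a membrane protein that sequesters SMADs (7.82 and 6.76, 1.06), and Otx2, a head homeobox gene. Otx2 stood at 7.82 in Activin+PD but did not pass background in 2i, a difference of at least 2.22. Bambi, a decoy receptor, and Pim2, a kinase, were on the other side of 0 at -0.61 and -0.56. BMP signalling, the sister branch through SMAD1/5, had 0 of 15 ligands, receptors and antagonists 2-fold apart, and its feedback genes Id1 (5.62 and 5.72) and Id3 (6.30 and 6.23) were nearly level. Its list of SMADs and targets held 2 higher genes of 14, Gata3 (7.71 and 6.15, 1.56, with 0.18 from another probe set) and Dusp9 (8.71 and 7.67, 1.04).

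Promoters of the target genes were searched for a motif bound by FOXH1, AATNNACA, on both strands of the 250 bases before the start site in RefSeq. It was found in 7.81% of the promoters of 10934 genes compared and in 2 of 7 Activin/Nodal targets with a promoter in the table, Tdgf1 and Otx2. The Tdgf1 promoter is shown because it held the motif at 2 places, 127 and 101 bases before the start. It lies at chr9:110946159-110946408, minus strand, in GRCm38.p6, and capitals mark the motif.
Tdgf1: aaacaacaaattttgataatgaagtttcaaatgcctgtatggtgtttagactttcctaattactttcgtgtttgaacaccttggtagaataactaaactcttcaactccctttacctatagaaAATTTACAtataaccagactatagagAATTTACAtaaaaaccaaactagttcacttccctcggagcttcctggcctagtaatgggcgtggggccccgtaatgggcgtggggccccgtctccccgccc
A match of letters is a description and not a binding site. Among the genes at least 2-fold higher the motif was in 5.26% of 152 promoters, below the share in all genes.

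Wnt signalling was described in the same way. Of 13 ligands, 1 was lower: Wnt8a stood at 6.08 and 7.86 (-1.79), while Wnt3 stood at 6.14 and 5.83. The ligand median was -0.073, or -0.043 with no background filter. It was -1.33 with background at the 99th percentile of the olfactory and vomeronasal probe sets. Of 17 receptors, the Frizzled genes went both ways, with Fzd7 at 8.30 and 7.01 (1.29) and Fzd10 at 5.96 and 7.45 (-1.48). The co-receptors Lrp5 (8.23 and 8.08) and Lrp6 (9.51 and 9.21) were within 2-fold. Among secreted antagonists Sfrp5 was 2-fold higher by measured value (6.50 in Activin+PD, by at least 0.91) and Sfrp1 stood at 10.21 and 9.30 (0.90). In the destruction complex, Axin2 was the 1 gene of 12 that was 2-fold apart, with Apc at 9.09 and 9.25, Gsk3b at 10.06 and 10.26 and Ctnnb1, beta-catenin, at 10.98 and 11.01. None of 13 TCF/LEF genes and cofactors was 2-fold apart, and Lef1 came closest at 7.53 and 8.23 (-0.70).

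Of 20 Wnt target genes, 5 were lower and 2 higher, and the median was -0.47. The 5 were Cdx2, Axin2, Cdx1 (5.70 and 7.62, -1.93), Sp5, a zinc finger factor that responds to beta-catenin (5.98 and 7.42, -1.44), and Ccnd1, cyclin D1 (8.80 and 9.86, -1.06). The feedback ubiquitin ligases Rnf43 (5.55 and 6.13) and Znrf3 (7.19 and 7.71) had differences of -0.58 and -0.53. Fzd7 and Fgf18 (7.90 and 6.6, 1.31) were the 2 higher genes. Myc, often listed as a Wnt target, stood at 7.95 and 7.73. The plot of signalling genes by role sets these lists side by side.

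**Figure D2:**
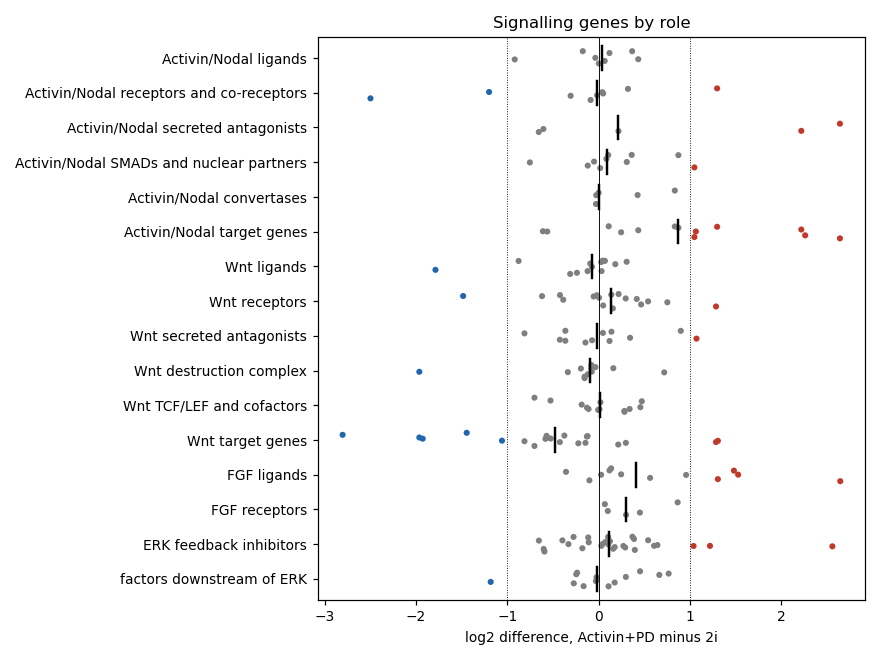
Log2 difference, Activin+PD minus 2i, of the compared members of 16 signalling lists, 1 point per gene with points spread vertically at random; black bars are list medians, dotted lines mark 2-fold, and red and blue points are genes at least 2-fold higher and lower. Measured values are drawn also where the dimmer array was below background. Target genes lie to the right for Activin/Nodal (median 0.87) and to the left for Wnt (median -0.47). Ligands and transducers of both pathways centre near 0 at the background used here.

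Letters bound by TCF/LEF factors, CTTTGA on either strand, were found in 12.5% of the 10934 promoters and in 6 of 15 Wnt targets (Sp5, Sp8, Lef1, Tnfrsf19, Dkk1 and Wnt11). They were in 16.1% of 87 promoters of genes at least 2-fold lower in Activin+PD and in 7.90% of 152 promoters of genes at least 2-fold higher. No match lay in the promoters of Axin2, Cdx2 and Nkx1-2, and of the 6 targets with the letters Sp5 was the 1 that was 2-fold apart. Sp5 is shown since its difference was -1.44 and it held the letters at 2 places, 204 and 104 bases before the start. Its promoter lies at chr2:70474673-70474922, plus strand, in GRCm38.p6, with the letters in capitals.
Sp5: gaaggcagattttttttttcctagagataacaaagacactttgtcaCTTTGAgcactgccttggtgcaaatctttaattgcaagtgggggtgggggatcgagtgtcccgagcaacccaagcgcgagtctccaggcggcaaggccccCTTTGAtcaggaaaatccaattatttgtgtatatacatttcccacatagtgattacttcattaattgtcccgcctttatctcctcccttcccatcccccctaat

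Of 17 caudal and posterior genes, 7 were at least 2-fold lower and 0 higher, with a median of -0.88. These were Nkx1-2, Cdx2, Foxi3, a forkhead factor of ectoderm (6.40 and 9.03, -2.63), Cdx1, Wnt8a, Sp5 and Gbx2, a homeobox gene of the hindbrain border (6.28 and 7.35, -1.07, with -0.49 from another probe set). The list was chosen with earlier results of these data known, and it counts Foxi3 although that factor is not particular to caudal tissue. Aldh1a2, which makes retinoic acid in the trunk (6.53 and 7.43, -0.90), Wnt5b (-0.88) and Hoxb1 (6.2 and 6.85, -0.65) lay on the same side within 2-fold. The remaining Cdx gene, Cdx4, stood at 5.67 and 5.80. Of 17 Hox and Cdx genes compared, Cdx1 and Cdx2 were the 2 that were 2-fold apart. On the mEpiSC array Foxi3 stood at 9.44 and Wnt8a at 8.75, above both mESC arrays, whereas Cdx2 stood at 5.91.

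A list of anterior genes, drawn up after their values were seen, held 5 higher genes of 10 and 0 lower, with a median of 0.92. Of 16 on the array 6 were not compared, and the median was 0.088 with no background filter, 0.73 when levels under background were set to it, and 2.02 with background at the 99th percentile of the receptor probe sets. Besides Lefty1 and Otx2, Hesx1, a forebrain and pituitary repressor, stood at 7.58 in Activin+PD and was higher by at least 1.99. Fezf2, a forebrain zinc finger factor, stood at 6.91 and was higher by at least 1.32. Shisa2, an inhibitor of Wnt and FGF receptors, stood at 8.28 and 6.51 (1.77). Hesx1, Otx2, Fezf2 and Shisa2 all lie on chromosome 14. Other anterior genes, Otx1 (6.57 and 6.44) and Rax (5.85 and 5.73), were within 2-fold, and on the mEpiSC array Otx2 stood at 8.37 and Hesx1 at 5.04, below background.

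Of 12 FGF ligands compared, among 22 on the array, 4 were at least 2-fold higher and 0 lower, with a median of 0.41. That median was 0.075 with no background filter and 0.96 with background at the 99th percentile. Fgf15, a ligand of neural tissue and gut, stood at 8.71 and 6.06 (2.65), but its other probe set gave 0.13. Fgf5, a ligand of the primed epiblast, stood at 7.08 and 5.60 (1.48). Fgf18 was described above, and Fgf23, a hormone-like ligand, stood at 6.87 in Activin+PD and was higher by at least 1.28. Fgf4, the ligand made by naive cells, stood at 10.82 and 10.26 (0.56). All 5 compared receptor genes had positive differences within 2-fold, the widest being Fgfr2 at 8.05 and 7.19 (0.87).

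Feedback inhibitors of ERK gave 3 higher genes of 28 and 0 lower, with a median of 0.12. They were all dual-specificity phosphatases: Dusp6, which acts on ERK (9.09 and 6.52, 2.56), Dusp16 (8.77 and 7.55, 1.22) and Dusp9. The Sprouty genes did not move together, with Spry2 at 6.12 and 6.52, Spry1 at 6.29 and 6.0 and Spry4 at 5.98 in Activin+PD, higher by at least 0.38. Of 13 transcription factors downstream of ERK, Egr1 was near background (at most 5.65) and Fos stood at 5.78 and 5.80. Etv5 stood at 8.35 and 7.58 (0.77, with 0.18 from another probe set). Elk3, a ternary complex factor, was the 1 lower gene at 6.03 and 7.22 (-1.18). On the mEpiSC array, grown without the MEK inhibitor, Dusp6 stood at 11.14.

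Receptor tyrosine kinases were listed after their values were seen. Of 40 in that list, 4 were higher and 1 lower, and the median was -0.019. Besides Ddr2, Erbb3, a neuregulin receptor, stood at 9.25 and 7.17 (2.08), Kit, the receptor of stem cell factor, at 10.12 and 8.37 (1.74) and Tek, the angiopoietin receptor, at 7.15 and 5.62 (1.54). Epha4, an ephrin receptor, stood at 7.90 and 9.20 (-1.30). The ligand genes of Kit and Erbb3 did not follow their receptors, with Kitl at 6.36 and 6.81 and Nrg1 at 6.46 and 6.82. In a later list of Ras regulators, 3 of 17 were higher and 1 lower. Mras, a Ras-like GTPase, stood at 8.26 and 6.41 (1.85), Rassf4 was higher by at least 1.91 and the exchange factor Rasgrp3 by at least 1.43, while Rasgrp1 stood at 5.96 and 7.46 (-1.5).

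In other signalling lists few genes were apart. Hhip, which binds hedgehog ligands and is a target of the pathway, stood at 7.73 and 5.92 (1.82), and the targets Gli1 (6.94 and 6.14, 0.80) and Ptch1 (9.61 and 8.96, 0.65) lay on the same side. Notch4 stood at 7.75 and 6.72 (1.04), the 1 gene apart of 18 in the Notch list. In the Hippo list of 18, Ccn2, a YAP target, stood at 8.65 and 7.15 (1.5), and the companion target Ccn1 at 8.27 and 7.55 (0.72). Stra8, a retinoid-responsive gene of meiosis, stood at 7.59 and 6.46 (1.12). In the LIF and STAT3 list of 17, Pim1 was higher and Gbx2 lower. Neither LIF receptor subunit differed 2-fold, with Lifr at 9.12 and 9.13 and Il6st at 9.73 and 10.25, and Pim1, a kinase and STAT3 target, stood at 9.84 and 8.72 (1.12, with 0.93 from another probe set).

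Most pluripotency genes were within 2-fold, with a lean to Activin+PD. Differences were positive for 11 of 14 core genes (median 0.21) and 14 of 20 naive genes (median 0.12). Of 14 core genes 1 was apart, Tdgf1, and the next were Dppa2 at 11.66 and 10.67, just under 2-fold, and Utf1 at 10.52 and 9.57 (0.95). Of 20 naive genes, Calcoco2, an autophagy receptor, was higher at 10.87 and 8.78 (2.09), and Gbx2 was lower. Tfcp2l1 (10.26 and 10.21), Klf2 (10.10 and 10.06) and Nr5a2 (10.04 and 10.21) had differences of at most 0.17 in size, and Prdm14 stood at 8.84 and 7.87 (0.97). The primed and formative list of 17 split, with Otx2, Hesx1, Fgf5 and Igfbp3 (8.38 and 7.36, 1.02) higher and Nkx1-2 and Wnt8a lower. Its remaining members Pou3f1 (6.08 and 5.84), Sox3 (6.94 and 6.62) and Foxd3 (7.61 and 7.03) were within 2-fold. The 2 de novo DNA methyltransferases leaned opposite ways, Dnmt3a at 9.19 and 8.48 and Dnmt3b at 8.95 and 9.54.

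Markers of other cell types that a culture might hold were read in full. Linear intensities were summed over all members of a list on the array, also those below background. Of 14 fibroblast and feeder genes compared, 0 were 2-fold apart. The sum over the 17 on the array was 1088 in Activin+PD and 1055 in 2i. For 20 streak and mesendoderm genes, with 0 apart of 16 compared, the sums were 1571 and 1428. Eomes stood at 6.85 and 7.05 and Mixl1 at 6.0 and 6.02. For 19 endoderm genes, 15 of them compared, the sums were 3444 and 2748. The endoderm list was mixed, with Lamb1, a laminin chain, at 9.06 and 7.73 (1.33) and Lama1, its partner chain, at 6.11 and 7.77 (-1.65), while Sox17 stood at 5.63 and 5.73 and Gata4 at 6.56 and 6.66. For 16 trophectoderm genes, 14 of them compared, the sums were 1483 and 1971. Gata3 was higher and Cdx2 and Plet1 (6.91 and 8.47, -1.55) were lower. For 20 neural genes, 17 of them compared, the sums were 3590 and 2616. Crmp1 and Tubb3 (9.32 and 8.0, 1.32) were higher, Olig3 (6.02 and 7.64, -1.62) was lower and Sox1 stood at 6.30 and 6.12. The part of such cells in other differences was not tested.

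Germline genes contributed to both sides. Of 18 meiosis genes compared, 5 were higher and 1 lower, beside 1.38% higher and 0.821% lower over all genes. Their median was 0.24. Of 26 on the array 8 were not compared, and with no background filter the median was 0.094. Tex11, an X-linked crossover gene, stood at 7.32 in Activin+PD and was higher by at least 1.73. Hormad2, a chromosome axis protein, was higher by at least 1.24, Taf7l, a testis TFIID subunit, by at least 0.68, and Smc1b, a meiotic cohesin subunit, stood at 6.85 and 5.65 (1.20). Stra8 was the fifth. Rec8, another meiotic cohesin subunit, stood at 7.41 and 8.47 (-1.06), and the synaptonemal genes Sycp1 (6.02 and 5.60) and Syce2 (7.49 and 7.51) were within 2-fold.

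In the piRNA pathway, which silences transposons in germ cells, 2 of 13 genes were higher and 0 lower. Mael, maelstrom, stood at 7.88 and 6.15 (1.73) and Gpat2 at 7.24 and 6.21 (1.04). Ddx4, the germ cell helicase, stood at 8.0 and 7.15 (0.85) and Tdrd12 at 8.35 and 9.06 (-0.71). Among 17 germ cell factors, 4 were higher: Kit, Sohlh2 (10.33 and 8.88, 1.45), Dazl (9.02 and 7.73, 1.28) and Prdm1 (7.48 and 6.31, 1.17). The 2 lower were Ct55, a cancer-testis gene, by at least 2.06, and Rpl10l, a testis paralogue of a ribosomal protein, at 7.92 and 9.07 (-1.14). Rhox5 was alone in its cluster: of 4 Rhox genes compared, Rhox6 stood at 5.92 and 6.18, Rhox1 at 6.11 and 5.80 and Rhox9 at 6.95 and 6.55.

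The PRAME-like family, listed after its values were seen, had 4 higher genes of 9 and 0 lower, with a median of 0.91. It had 30 members on the array, and with no background filter the median was 0.014. Pramel14 stood at 7.0 and 5.68 (1.32) and Pramel30 at 9.33 and 8.25 (1.09). The X-linked Pramel3 stood at 6.82 in Activin+PD, higher by at least 1.23, and AV320801 at 7.49, higher by at least 1.89. Pramel12 (7.89 and 8.10) and Pramel13 (7.85 and 8.27) were on the other side within 2-fold. Near-identical copies in this family can share probes, so which copy was measured is uncertain. None of 9 genes of the 2-cell-like list was 2-fold apart, and Zscan4c stood at 7.55 and 7.03.

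**Figure D3:**
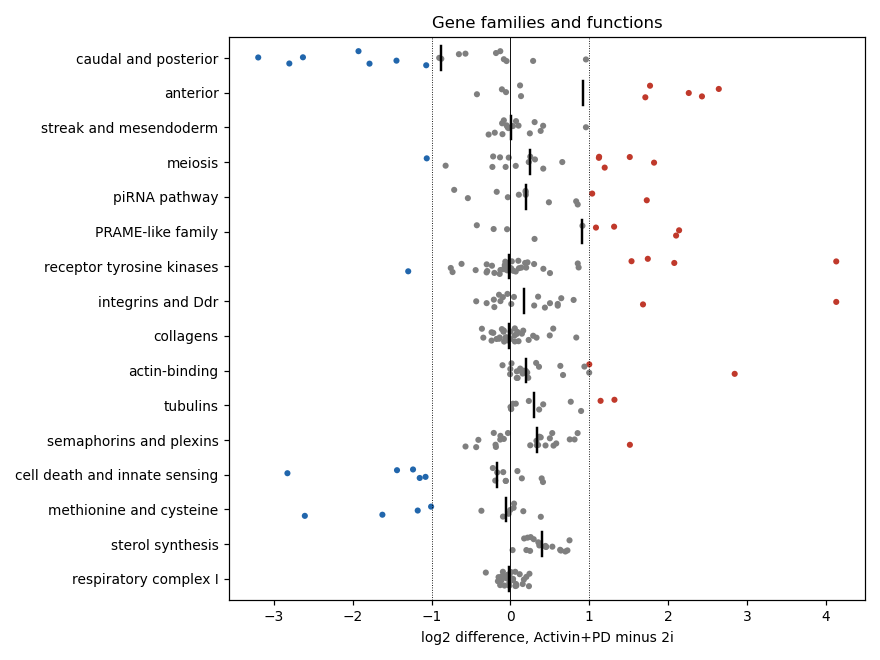
Log2 difference, Activin+PD minus 2i, of the compared members of 16 gene lists, 1 point per gene with points spread vertically at random; bars, lines and colours are as for the signalling genes, and measured values are drawn also where the dimmer array was below background. Caudal genes lie to the left (median -0.88) and anterior genes to the right (median 0.92, or 0.088 with no background filter), the 18 sterol genes all lie right of 0 without reaching 2-fold, and complex I genes gather around 0.

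Some genes apart were neighbours. In RefSeq gene order, restricted to genes compared, 38 of the 308 genes apart (12.3%) stood next to another that was apart in the same direction. They formed 16 runs, 10 higher and 6 lower. Over all genes compared 1.38% were higher and 0.821% lower, and the share of neighbours to be met without any grouping was not computed. Some runs hold similar copies that may share probes, so their genes may not be separate readings. The longest runs had 4 genes, Gm10406, Gm3696, Gm5797 and Gm38418 on chromosome 14 and Rtl8c, Ct55, 1700013H16Rik and Zfp36l3 on X. Runs of 3 genes were Lefty2, Lefty1 and Tmem63a on chromosome 1, and Serpinb1a, Serpinb9b and Serpinb9e on chromosome 13. Pairs included Bhmt2 with Dmgdh, Calcoco2 with Ttll6, Ccn2 with Enpp3 and Pramel14 with Pramel30.

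An interval on chromosome 14 was drawn from the first to the last of 10 higher genes, picked by their symbols and not by sequence. It held 18 genes on the array, all named as predicted genes, clones or pseudogenes. Of these, 15 were compared, 10 were higher and 0 were lower, counts that depend on how the interval was drawn. The 10 spanned 6.91 to 9.33 in Activin+PD and 5.75 to 7.12 in 2i. Gm5797 stood at 9.33 and 6.91 (2.43), Lamtor3-ps at 8.83 and 6.64 (2.19), Gm3696 at 7.68 and 5.78 (1.90) and Gm38418 at 7.66 and 5.77 (1.89). The mEpiSC array had the 10 genes at 6.80 to 9.52 and differed from Activin+PD by at most 0.57, so for these genes the 2i array was the one that stood apart. The 5 others compared ranged from Gm9602 (5.51 in Activin+PD, not above background in 2i) to Gm3594 (8.05 and 7.07, 0.98).

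Some genes of the interval had promoters close to identical, and the authors' probes may not tell such copies apart. Gm5797 and Gm2888 shared 96.9% over 224 aligned bases, and likeness was not measured for the rest beyond the pair below. The promoters of that pair are shown to let a reader see how alike they are. Gm5797 (chr14:7332396-7332645, minus strand) and Gm10413 (chr14:3394843-3395092, plus strand), both GRCm38.p6 in RefSeq, shared 96.8% of the 250 bases before the start, and capitals mark the 8 differences.
Gm5797: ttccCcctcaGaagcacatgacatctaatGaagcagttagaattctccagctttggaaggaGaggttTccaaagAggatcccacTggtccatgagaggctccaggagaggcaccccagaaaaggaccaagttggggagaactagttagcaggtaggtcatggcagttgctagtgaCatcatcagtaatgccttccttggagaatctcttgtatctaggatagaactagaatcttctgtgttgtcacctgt
Gm10413: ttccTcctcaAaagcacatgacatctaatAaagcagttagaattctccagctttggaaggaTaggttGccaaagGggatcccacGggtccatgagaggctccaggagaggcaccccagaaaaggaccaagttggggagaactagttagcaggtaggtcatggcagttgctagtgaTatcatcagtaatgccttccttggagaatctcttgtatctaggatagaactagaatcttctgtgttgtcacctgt
Gm10413 stood at 7.36 and 5.75 (1.61). An X-linked pair, Gm15097 and Gm15091, shared 98.2% over 219 aligned bases, and Gm15091 stood at 8.16 and 6.77 (1.39) while Gm15097 stood at 6.77 and 5.55, higher by at least 1.18. Gm15127, also on X, shared 97.8% with Gm15097 over 225 bases and was higher by at least 1.23. Its neighbour Gm15114, whose promoter shared 49.1% with that of Gm15097, was higher by at least 1.26.

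The X-linked run of lower genes included 1700013H16Rik at 6.02 and 8.79 (-2.77), Rtl8c, a gene derived from a retrotransposon, at 5.54 and 7.95 (-2.41), and Zfp36l3, an RNA-binding zinc finger gene, at 6.27 and 8.47 (-2.20). Unlike the 10 higher genes of the chromosome 14 interval, these did not share 1 order across the arrays. On the mEpiSC array Rtl8c stood at 7.75, near 2i, and 1700013H16Rik at 5.27, below background. Of the 6 higher X-linked genes of the PRAME-like and Gm15 families, 5 were below background on the mEpiSC array, and Gm15091 stood there at 5.86.

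**Figure D4:**
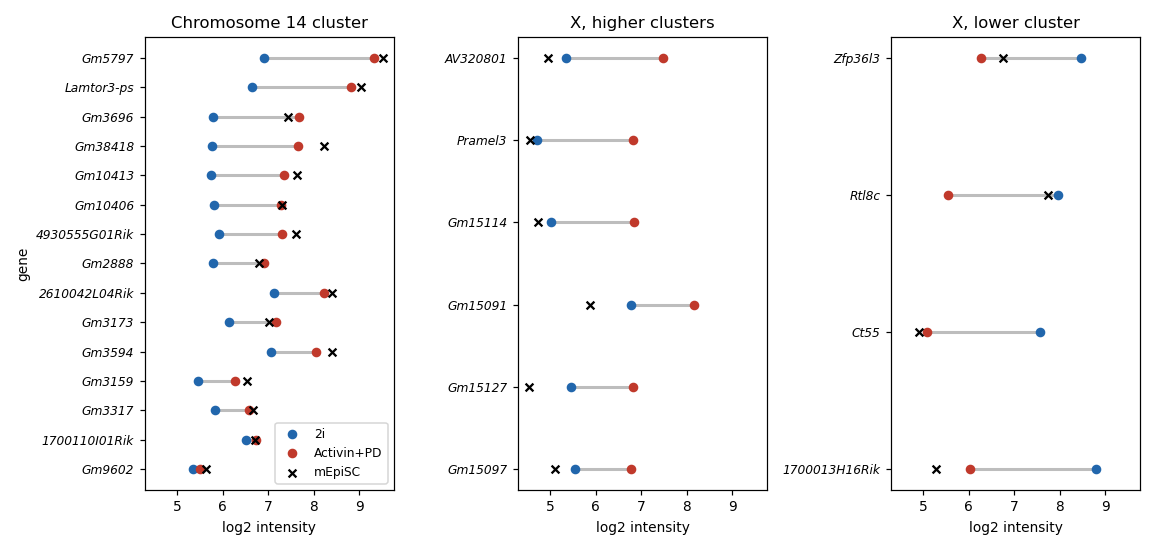
Log2 intensity on the 2i (blue), Activin+PD (red) and mEpiSC (crosses) arrays for 15 genes of the chromosome 14 cluster, 6 genes of higher X-linked clusters and 4 genes of a lower X-linked run, 1 array per culture. On chromosome 14 the crosses lie near the red points, and in the higher X-linked genes they lie left of the red points, 5 of 6 below background.

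By chromosome, X and 14 held the largest shares of higher genes. On X, 22 of 459 genes compared were higher (4.79%) and 11 lower (2.40%), with a median of 0.093, whereas the medians of the 19 autosomes lay between -0.040 and 0.010. Beyond the families above, the X-linked higher genes included Gpc4, a heparan sulfate proteoglycan (8.31 and 6.78, 1.53), Nup62cl (1.55), Bex1 (1.13) and Tmsb4x, thymosin beta 4 (1.08), and the lower ones Maoa, monoamine oxidase A (-1.28), Pnma5 (-1.16) and Itm2a (-1.09). On chromosome 14, 20 of 492 genes were higher (4.07%), 10 of them in the interval described above, and 3 were lower. Chromosome 18 had the largest autosomal share of lower genes, 9 of 329 (2.74%), among them Gfra3, Cdx1, Wnt8a and Dsg2, a desmosomal cadherin (7.46 and 9.22, -1.76).

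**Figure D5:**
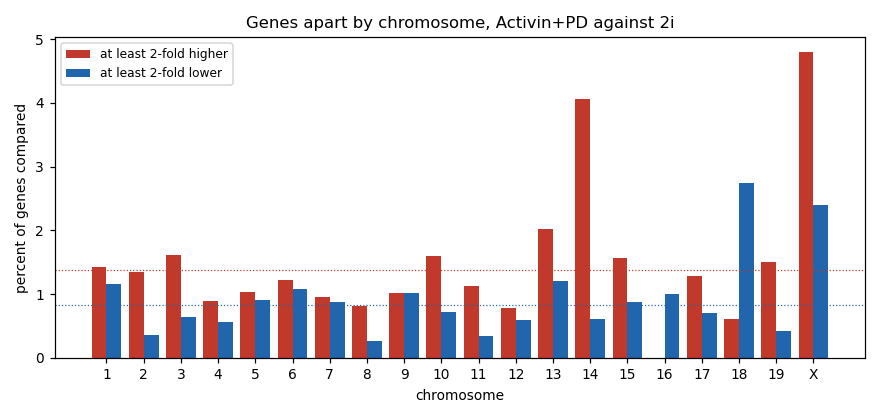
Percent of the genes compared on each chromosome that were at least 2-fold higher (red) or lower (blue) in Activin+PD than in 2i, with dotted lines at the shares over all genes (1.38% and 0.821%). The red bars of X (4.79%) and chromosome 14 (4.07%) stand above the other red bars.

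Among 160 miRNA genes compared, 1 was higher and 1 lower, with a median of -0.11. The array reads hairpin transcripts, so values do not separate the arms. The mature sequences from RefSeq (GRCm38.p6) are shown for 7 members of the pluripotency clusters Mir302 and Mir290, and for the lower gene, with the seed, bases 2 to 8, in capitals. The seed pairs with target mRNAs, and the first 5 below share AAGUGCU.
mmu-miR-302b-3p: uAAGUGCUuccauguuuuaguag
mmu-miR-302d-3p: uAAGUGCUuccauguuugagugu
mmu-miR-291a-3p: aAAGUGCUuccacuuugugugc
mmu-miR-294-3p: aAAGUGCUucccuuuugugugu
mmu-miR-295-3p: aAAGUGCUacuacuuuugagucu
mmu-miR-302c-3p: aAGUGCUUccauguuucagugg
mmu-miR-290a-3p: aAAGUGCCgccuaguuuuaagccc
mmu-miR-135b-3p: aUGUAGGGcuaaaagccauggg
Mir302c, with the seed shifted by 1 base, stood at 6.85 and 5.62 (1.24) and at 9.08 on the mEpiSC array. Mir302a stood at 6.02 in Activin+PD, higher by at least 0.43, and at 8.78 in mEpiSCs, while Mir302b and Mir367 were below background on both mESC arrays. Mir290a, of a cluster abundant in naive cells, stood at 8.97 and 8.30 (0.67). Mir135b was the lower gene at 5.51 and 6.79 (-1.28).

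Among 13 cyclins, 1 was higher and 1 lower, both of the D type. The difference was 3.37 for Ccnd2 and -1.06 for Ccnd1, and Ccnd3 stood at 9.47 and 8.87 (0.60). Their kinase partners were Cdk4 at 11.25 and 11.38 and Cdk6 at 7.13 and 8.07 (-0.95), and none of 18 kinases of the family was 2-fold apart. Rb1, the pocket protein that cyclin D kinases phosphorylate, stood at 9.0 and 8.18 (0.82), and Cdkn1a, p21, at 10.35 and 11.16 (-0.81). Cyclins of later phases such as Ccne1 (9.41 and 9.42), Ccna2 (10.66 and 10.77) and Ccnb2 (10.21 and 10.11) were nearly equal.

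Each list of matrix and adhesion genes held at most 2 genes that were 2-fold apart. The median of integrins and collagen receptors was 0.17, or -0.046 with no background filter and 0.55 with background at the 99th percentile. For proteases and inhibitors it was 0.21, or 0.00078 with no filter and 0.49 at the 99th percentile. None of 32 collagen genes was 2-fold apart, while of 20 integrins and collagen receptors 2 were higher, Ddr2 and Itga5, the fibronectin receptor chain (9.16 and 7.48, 1.68). Fn1, fibronectin, stood at 11.53 and 11.69. Gpc4 was the 1 gene apart of 14 proteoglycans, and Sdc4, a syndecan, stood at 8.19 and 9.07 (-0.88). Mmp25, a membrane-anchored metalloproteinase, stood at 8.28 and 6.30 (1.97), the 1 gene apart of 24 proteases and inhibitors. Cdh3, P-cadherin, stood at 9.14 and 7.67 (1.47), whereas Cdh1, E-cadherin, stood at 10.59 and 10.73. Dsp, desmoplakin, stood at 8.01 and 6.44 (1.56), opposite in sign to Dsg2.

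Of 23 actin-binding and contractile genes, 20 had positive differences and 2 were 2-fold higher, with a median of 0.19. These were Actn3 (10.22 and 7.38) and the calponin Cnn2 (9.07 and 8.07, 1.0). Next came Tagln2 (8.86 and 7.86, with 0.52 from another probe set) and Tpm1, a tropomyosin (8.0 and 7.06, 0.94). Of 15 tubulin genes on the array 12 were compared, and these all had positive differences. Their median was 0.30, or 0.077 with no background filter. The 2 apart were Tubb3 and Tubb2a (8.52 and 7.38, 1.14), both neuronal beta-tubulins. Tubb5 stood at 12.72 and 12.71. Ina, a neuronal intermediate filament gene, stood at 9.95 and 7.98 (1.96).

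Axon guidance genes are also used by other cells to steer and adhere. In 25 semaphorins, plexins and neuropilins the median was 0.33, with 1 gene apart, Plxnc1, which stood at 6.80 in Activin+PD and was higher by at least 1.21. Sema3e stood at 8.22 and 7.37 (0.85) and Sema6a at 6.52 and 5.71 (0.81). Crmp1 and its relative Dpysl4 (7.12 and 5.88, 1.24) were higher, Dpysl2 stood at 9.07 and 8.52 (0.55), and Ntn1, the netrin that guides commissural axons, stood at 7.45 and 8.47 (-1.03). Efnb2, an ephrin ligand, stood at 8.69 and 7.60 (1.09), opposite in sign to the receptor Epha4.

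The 18 sterol synthesis genes all had positive differences, from 0.028 for Tm7sf2 to 0.75 for Hsd17b7 (7.84 and 7.09), and a median of 0.41, but 0 reached 2-fold. Fdps, farnesyl diphosphate synthase, stood at 10.36 and 9.64, Dhcr7, which makes cholesterol from its last precursor, at 9.74 and 9.04, and Srebf2, the master regulator, at 9.89 and 9.69. The respiratory chain was level, with 0 of 32 complex I genes and 0 of 36 genes of complexes III to V apart and medians of -0.014 and -0.068. In glycolysis 1 of 19 genes was apart, Slc16a3, the lactate exporter (8.66 and 6.99, 1.68), while Gapdh stood at 13.04 and 12.94.

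Methionine, betaine and cysteine metabolism, a list drawn up after its values were seen, held 4 lower genes of 12 and 0 higher, with a median of -0.058. Over all genes 0.821% were lower. The list set first for one-carbon, serine, glycine and threonine metabolism had 1 of 19 genes apart, Dmgdh, and a median of -0.038. Dmgdh, dimethylglycine dehydrogenase, stood at 8.0 in 2i and was lower by at least 2.50. Its chromosome 13 neighbour Bhmt2, a homocysteine methyltransferase, stood at 6.47 in 2i and was lower by at least 0.97. Cdo1, cysteine dioxygenase, stood at 7.41 and 9.03 (-1.62), and Cbs, which starts transsulfuration, at 7.07 and 8.07 (-1.01). Cth, the next enzyme after Cbs, stood at 10.03 and 9.65 (0.39), and Mtr, methionine synthase, at 8.46 and 8.83.

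Of 28 cytochromes P450, listed after their values were seen, 3 were lower: Cyp1a1, the classic target of the aryl hydrocarbon receptor (5.66 and 7.60, -1.94), Cyp2b23 (8.40 and 9.60, -1.20) and Cyp2c70, by at least 0.83. The receptor gene Ahr stood at 7.79 and 7.53, and its other targets Nqo1 (8.89 and 9.01) and Tiparp (8.16 and 7.63) were within 2-fold. Gstm3, a glutathione transferase, stood at 6.43 and 7.98 (-1.55), the 1 gene apart of 33 in the glutathione and redox list. Of 3 genes in no list, named after their values were seen, Ephx2, an epoxide hydrolase, stood at 8.40 and 10.27 (-1.87), Aox3, an aldehyde oxidase, at 5.53 and 7.37 (-1.84), and Abcg2, a drug efflux transporter, at 9.52 and 8.31 (1.21).

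Of 31 innate sensing and cell death genes on the array, also listed after their values were seen, 16 were not compared. The median of the 15 compared was -0.17, or -0.040 with no background filter and -0.65 with background at the 99th percentile. Beside 0.821% lower over all genes, 0 of the 15 were higher and 5 were lower. Besides Pglyrp1 these were Aim2, a sensor of cytosolic DNA (6.85 and 8.29, -1.44), Casp8, the initiator of death receptor apoptosis (6.86 and 8.10, -1.24), Ripk3, the necroptosis kinase (7.03 and 8.18, -1.15), and Ly96, the partner of the endotoxin receptor (6.53 and 7.61, -1.08). Fadd, the adaptor of Casp8, stood at 6.43 and 6.62. Of 54 serpins on the array, also listed after their values were seen, 11 were compared. Their median was 0.066, or 0.013 with no background filter and -0.66 with background at the 99th percentile. The 3 lower genes, beside 0.821% lower over all genes, were all in the chromosome 13 run. They were Serpinb1a, an inhibitor of neutrophil proteases (6.21 and 8.32, -2.11), Serpinb9b (7.07 and 8.08, -1.02) and Serpinb9e, lower by at least 0.81. None of 10 interferon response genes was 2-fold apart, with Ifitm3 at 11.40 and 10.71.

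Hypoxia and transport lists were also drawn up after their values were seen. Of 19 hypoxia genes, 3 were higher and 1 lower, with a median of 0.30. Vegfa, the angiogenic ligand, stood at 8.62 and 7.07 (1.55), Epas1, the HIF2 alpha subunit, at 8.0 and 6.98 (1.03), and Egln3, a prolyl hydroxylase, was higher by at least 1.31, while Ak4, a mitochondrial adenylate kinase, stood at 7.88 and 9.61 (-1.73). Among 257 solute carriers 8 were higher and 3 lower, 4.28% in all beside 2.2% over all genes. Besides Slc16a3, the higher ones included Slc27a2, a fatty acid transporter (7.66 and 6.07, 1.59), and the amino acid carrier Slc38a1 (9.53 and 8.23, 1.31). Of 10 carbonic anhydrases, Car4 (7.45 and 6.06, 1.39) and Car13 (8.29 and 7.20, 1.08) were higher, and the median was 0.37, or 0.041 with no background filter and 0.65 with background at the 99th percentile.

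Transcription factor families other than those above held few genes apart. In the Sox family of 15, Sox4 stood at 8.02 and 6.65 (1.37). In the Fox family of 34, Foxn4 (7.62 and 6.52, 1.10) was higher and Foxi3 lower. None of 25 nuclear receptors, 9 Tbx genes or 12 genes of the Myc and Max network was 2-fold apart. Of 22 Polycomb genes, Phf19, which recruits the repressive complex, stood at 6.97 and 5.84 (1.13). Of 21 imprinted genes, Mest stood at 10.69 and 9.64 (1.05), Peg10 at 8.79 and 9.80 (-1.01) and Phlda2 at 6.78 and 7.78 (-1.0).

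A survey that grouped genes by the letters of their symbol before the first digit gave 230 families of at least 8 genes compared, and 171 of them had 0 genes apart. Family medians ran from -0.23 to 0.61. The highest were Pramel (0.61), Fgf (0.41), Car (0.37), Sema (0.34), Plekha (0.33) and Mmp (0.24), among genes that passed the background filter; without it, the PRAME-like, Fgf and carbonic anhydrase lists had the medians near 0 given above. The lowest were Lgals, the galectins (-0.23, with Lgals1 apart), Commd (-0.19) and Mfsd (-0.17).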

How the data were processed

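Total RNA of 3 cultures was hybridised to 1 array each. The deposited values were linear intensities per probe set, made by the authors with RMA, per the submitters' processing notes. RMA corrects background and quantile-normalises arrays, so a difference in RNA per cell is not visible. Log2 was taken of each deposited intensity. Of 33793 probe sets, 23521 had 1 gene symbol, 1814 several and 8458 were not listed; 23328 were updated through Entrez identifiers. Each gene was read from its single-symbol probe set of highest mean level on the 3 arrays. Background came from 1400 receptor probe sets (45.4 for Activin+PD, 48.2 for 2i, 47.6 for mEpiSC). There was 1 array per group, which limits the precision, and no test was made. Genes named are the 15 furthest each way, list members at least 2-fold apart or needed to show a role, and members apart of the families described; 1 of them is not reported here. The members and lists were chosen with earlier results of these data known: 83 lists were set first and 14 after the values were seen. Promoter and miRNA sequences are from RefSeq tables (GRCm38.p6), matched by symbol. Work was done in Python 3.11.15 with pandas 2.3.3 and was tested on simulated data.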

Additional observations from a re-analysis of the deposited data

Results flagged for a closer look

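Probe sets that the gene comparison did not use also held values apart. Of 1128 compared probe sets paired with several symbols, 43 (3.81%) stood 2-fold or more above 2i in Activin+PD and 1 below it, the furthest at 3.65. All symbols lay on chromosome 14 for 26 of the 43 and on X for 12. Of 2831 compared probe sets that the annotation did not list, 39 were higher (1.38%) and 5 lower. Over all 18701 probe sets compared, 1.49% were higher and 0.695% lower.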

How the results depend on the processing

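Each value was recomputed under 7 other settings: no background filter, background at the 99th percentile, values below background raised to it, the mean over a gene's probe sets, 16 subtracted from each intensity before log2, median centring and removal of an intensity trend. Subtracting 16, for a constant that may have been added before deposit, gave 295 genes higher in place of 193, and all 193 were among them. No other setting moved either count by over 1.5 times, and higher genes made up 62.2% to 64.4% of those apart. Of 679 list medians over 97 lists, 18 moved by 0.24 or more, 4 with no filter and 14 at the 99th percentile. None of the 18 lists with a median of at least 0.24 in size changed sign. Nearer 0, 29 medians of 21 lists changed sign, and 2 of these moved by that much, both at the 99th percentile: serpins from 0.066 to -0.66 and factors downstream of ERK from -0.023 to 0.30. Of 210 values of 30 named genes, 25 moved and 0 reversed. No paired analysis was possible because each group had 1 array, and for the same reason no replicate could be left out. Genes near background are the least certain: 24 of the 193 higher genes and 15 of the 115 lower ones were below it on the dimmer array. The cultures differed in days as well as in factors, and these cannot be told apart.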
